A study of Mus musculus with 12 samples.

Results

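Brain endothelial and barrier genes are described here through 9 genes: Cldn5, Mfsd2a, Slco1c1, Slc2a1, Flt1, Pecam1, Tek, Esam and Ly6c1. They were taken by name as markers of the brain endothelium from the 23953 genes of the RNA tables, and all 9 were found. The choice was made with earlier results of these data known. RNA levels were read for each gene, and peaks of 5-hydroxymethylcytosine (5hmC, an oxidised form of methylated cytosine made by the TET enzymes) were read over its body and 20 kb on either side, a span called its window.

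The samples were whole hippocampi of male C57BL/6 mice, with an age of postnatal day 28 in the sample tags and 7 weeks in the protocol. Stressed mice (6 animals) were restrained in a tube for 30 min, starting 2 h after lights on, and then kept alone in a clean cage for 1 h. Control mice (5 animals) were neither restrained nor given that hour, and were taken from the home cage for collection when restraint began. The later time of collection and the single housing of the stressed mice therefore cannot be told apart from restraint. Both groups had brief isoflurane anaesthesia. DNA of at most 2 mice per pool gave 3 stress and 3 control 5hmC libraries, with 1 list of peaks each. RNA of the same pools was given as 1 table per group. Its unit is FPKM, a count of fragments scaled by transcript length and by library size. 1 of the pools was a single mouse, which by the numbers of mice was a control pool, and which of the 3 is not stated.

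Endothelial cells of brain capillaries form the blood-brain barrier. Tight junction proteins seal the clefts between them, vesicle traffic across them is kept low, and dedicated carriers bring in glucose, lipids and hormones. Growth factor receptors on their surface keep the vessels alive and quiescent. Endothelial cells are a small part of hippocampal tissue, so in these bulk samples fewer cells of a type and less RNA per cell cannot be told apart, and the cell type that carries a 5hmC peak was not measured.

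Peak lists held 15195 to 31654 peaks and covered 16.6 to 38.1 Mb, and the lowest score in each list was 50. Stress replicates 2 and 3 and control replicate 2 had the longest lists. Neuronal markers identified the tissue, with Snap25, a synaptic protein gene, at 472 FPKM (control) and 547 FPKM (stress). Transcripts had 8.14 (control) and 9.22 (stress) reads per base for each FPKM, a measure of depth. The list of 12 choroid plexus markers summed to 318 FPKM (control) and 101 FPKM (stress), and each of the 8 above the filter given below was lower after stress by at least 1.5-fold. Cldn5 was lower in the same table, while most of the endothelial genes below were not. The part of choroid plexus RNA in the members' values was not tested.

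The RNA comparison asked how these genes differed between stressed and control hippocampus. Mfsd2a, Slc2a1 and Ly6c1 were higher in the stress table by at least 1.5-fold, and Cldn5 was lower by at least as much. The other 5 genes lay within 1.5-fold. Differences are log2((stress + 1)/(control + 1)) of FPKM summed over isoforms. The added 1 FPKM understates differences of low genes. With 1 table per group nothing was replicated or tested, and the values compare these tables rather than the conditions. The filter was an average of 1 FPKM over both tables, which 11071 genes and all 9 members passed. Past 1.5-fold, 1.18% of these genes were higher and 0.894% lower, beside 3 and 1 of the members. Their median difference was 0.19 on the log2 scale, with 6 above and 3 below the median of all genes, which was 0.08.

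Among the transporters, Mfsd2a had the largest difference of the 9. It encodes a carrier of lysophosphatidylcholine lipids that brings docosahexaenoic acid into the brain and restrains vesicle traffic through the endothelium. Its RNA was at 1.93 FPKM (control) and 4.94 FPKM (stress), a linear ratio of 2.57 and a log2 difference of 1.02. Only 32 of the 11071 genes had a higher log2 difference. Slc2a1 encodes GLUT1, the glucose transporter of the barrier, which astrocytes also make. It was at 11.2 FPKM (control) and 21.6 FPKM (stress), with a log2 difference of 0.89 and 43 genes above it. Slco1c1 encodes a thyroxine carrier of endothelium and astrocytes. Its level was 9.01 and 10.4 FPKM, in the same order (log2 difference 0.19). All 3 transporters had a positive difference, as had 7678 of the 11071 genes, and 2634 genes lay above Slco1c1.

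The junction and adhesion genes did not share a direction. Cldn5 encodes claudin-5, the main tight junction protein of brain endothelium, and was at 9.80 FPKM (control) and 5.77 FPKM (stress). That is a log2 difference of -0.67, with 67 of 11071 genes lower. Esam encodes an adhesion molecule of endothelial tight junctions, and its level was 2.75 and 4.05 FPKM (log2 difference 0.43). Pecam1 encodes CD31, an adhesion molecule of endothelium, platelets and leukocytes, and was at 2.60 and 2.29 FPKM (log2 difference -0.13). Cldn5 was thus lower in the same table in which Esam was higher, and Pecam1 lay between them.

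Both receptors lay well within 1.5-fold. Flt1 encodes VEGF receptor 1, which binds VEGF and limits its signal, and was at 4.19 FPKM (control) and 4.13 FPKM (stress), with a log2 difference of -0.02. Tek encodes TIE2, the receptor for angiopoietins, and was at 1.54 and 1.84 FPKM (log2 difference 0.16). The surface protein gene Ly6c1, which belongs to the Ly6 family of membrane-anchored proteins, was at 13.6 FPKM (control) and 23.1 FPKM (stress), with a log2 difference of 0.72 and 72 genes above it. Its neighbour and close copy Ly6c2 was at 2.62 and 4.23 FPKM (log2 difference 0.53). Reads may be shared between these copies, so the level of each is uncertain, and both were higher in the stress table.

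**Figure D1:**
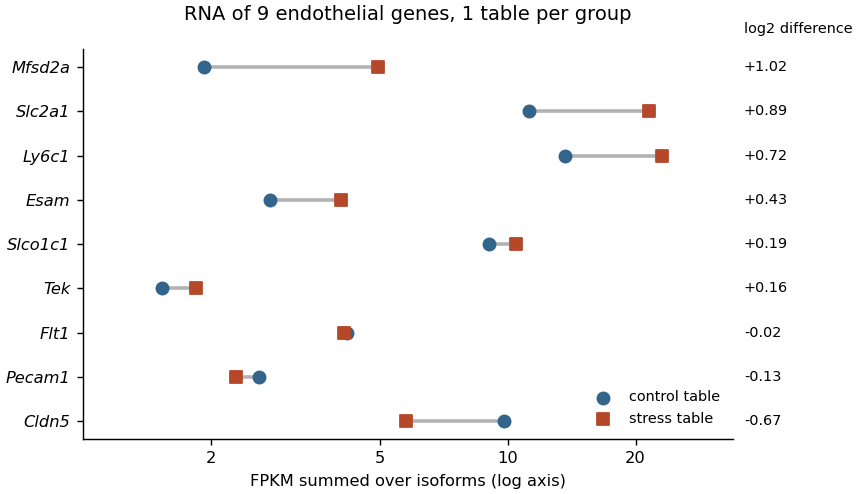
RNA level of the 9 genes in FPKM summed over isoforms (log axis), with the control table as circles, the stress table as squares, and the log2((stress + 1)/(control + 1)) difference at the right. There is 1 value per group and gene. Mfsd2a, Slc2a1 and Ly6c1 stand to the right in the stress table (1.02, 0.89 and 0.72), Cldn5 stands to the left (-0.67), and Flt1 nearly coincides (-0.02).

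Depth behind these values can be read from the mean read coverage of the transcripts. For Mfsd2a it was 15.6 reads per base (control) and 45.5 (stress), and for Cldn5 80.0 and 53.3. Slc2a1 had 91.2 and 199. The lowest coverage was that of Tek, at 12.5 and 16.95. For Cldn5 and Slc2a1 the deposited FPKM lay outside the interval that the authors' table gives for it, in both tables, and no error was taken from these intervals.

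Estimated isoform levels differed between the tables in genes whose summed level lay within 1.5-fold. How well the reads tell such similar transcripts apart was not measured, so the split between them is uncertain. Pecam1 has a pair of transcripts in the tables, and NM_008816 carries an exon of 57 nt (exon 14 of 15) that NM_001032378 lacks. The form with the exon was at 0.974 FPKM in the control table, 37.5% of the gene, and at 2.29 FPKM in the stress table. The form without it was at 1.62 and 0.000285 FPKM. A shift of at least these 62.5 percentage points occurred in 5.57% of the 3211 genes that passed the filter and have 2 or more transcripts. The alternative with the most abundant isoform only used NM_008816 in both tables, although it was the lesser form in the control table. The log2 difference of Pecam1 was then 0.74 in place of -0.13. For Tek, NM_001290549, whose exon 14 is 152 nt long in place of 155, was at 0.000562 FPKM (control) and 0.349 FPKM (stress). Its share of the gene was 0.0365% and 18.9%, and the leading form NM_013690 was at 1.51 and 1.41 FPKM. Shifts as large as that of the leading form of Tek, 21.4 points, were found in 28.1% of the same 3211 genes. Ly6c1 was carried by NM_010741 in both tables (93.3% and 97.3% of the gene). Slco1c1 was carried by NM_021471 (9.01 and 10.4 FPKM), and the other 5 genes have 1 transcript.

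The 4 genes past 1.5-fold differ in the CpG content of their promoters, which matters here because 5hmC is formed on methylated CpG. Their 250 bases before the RefSeq start site are shown 5′ to 3′ on the gene's strand, with each CpG in capitals (RefSeq, build GRCm38.p6, not the mm9 build of the peaks). They lie at chr4:122961189-122961438 on the minus strand for Mfsd2a, chr4:119108495-119108744 on the plus strand for Slc2a1, chr15:75048838-75049087 on the minus strand for Ly6c1 and chr16:18776597-18776846 on the plus strand for Cldn5.
Mfsd2a: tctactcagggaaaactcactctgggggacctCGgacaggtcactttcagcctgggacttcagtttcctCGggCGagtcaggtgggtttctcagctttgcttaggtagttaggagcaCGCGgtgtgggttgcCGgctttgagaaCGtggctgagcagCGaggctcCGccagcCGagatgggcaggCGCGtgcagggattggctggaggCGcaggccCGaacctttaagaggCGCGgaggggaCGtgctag
Slc2a1: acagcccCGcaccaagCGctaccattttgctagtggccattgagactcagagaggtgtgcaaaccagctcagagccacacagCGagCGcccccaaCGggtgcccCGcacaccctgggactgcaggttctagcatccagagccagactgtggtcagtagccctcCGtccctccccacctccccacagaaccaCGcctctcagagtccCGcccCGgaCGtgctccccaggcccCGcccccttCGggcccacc
Ly6c1: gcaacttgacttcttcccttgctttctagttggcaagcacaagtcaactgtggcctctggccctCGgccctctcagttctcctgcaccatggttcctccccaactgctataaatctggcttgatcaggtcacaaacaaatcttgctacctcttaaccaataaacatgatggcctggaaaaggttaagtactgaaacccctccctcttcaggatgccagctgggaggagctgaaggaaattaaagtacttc
Cldn5: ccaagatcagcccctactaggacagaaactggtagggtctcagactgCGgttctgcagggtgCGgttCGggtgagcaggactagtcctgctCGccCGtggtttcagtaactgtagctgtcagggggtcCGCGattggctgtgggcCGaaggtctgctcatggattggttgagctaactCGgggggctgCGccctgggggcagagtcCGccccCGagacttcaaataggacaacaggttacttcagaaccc

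These stretches hold 17 CpG for Mfsd2a, 13 for Slc2a1, 12 for Cldn5 and 1 for Ly6c1, beside a median of 6 over 32851 RefSeq promoters. Flt1 had the most of the 7 members with an entry, with 23, and Tek had 2 and Slco1c1 0. The genes that were higher in the stress table thus include both CpG-rich and CpG-poor promoters. The palindrome of the glucocorticoid receptor, searched on both strands like the other motifs, was in none of the 7 and in 0.00913% of all promoters. Its core AGAACA, which the palindrome contains, was in the promoter of Tek alone among the 7, and in 16.1% of all promoters. Neither the ETS core CCGGAA (12.0% of all promoters) nor the TCF/LEF motif CTTTGAT (3.21%) was in any of the 7. The promoter of Ly6c1 was 59.0% identical to that of Ly6c2 over a global alignment of 290 columns.

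The 5hmC comparison asked whether peaks over these genes differed after restraint. Windows of 7 of the 9 genes held a peak in at least 1 library, and those of Tek and Ly6c1 held none in any of the 6. No member had coverage that separated the groups. Over all 18185 genes with a peak in the window, 10.5% had higher coverage in every stress than in every control library and 1.11% had lower, beside 0 of the 7 members in either direction. The exact two-sided permutation test over 3 and 3 libraries cannot give a p below 0.1, so no gene could reach an unadjusted p under 0.05 and 0 did. Its p-values place the difference of the group means among all assignments of the 6 libraries. With 1 library per pool, differences between pools and between library preparations cannot be told apart.

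Among the transporters, peaks covered 3.70%, 2.46% and 6.31% of the Mfsd2a window in stress replicates 1, 2 and 3, and 0%, 2.67% and 1.12% in control replicates 1, 2 and 3. Control replicate 2 was above stress replicate 2, so the groups overlapped. The means were 4.16% ± 1.97 in stress and 1.26% ± 1.34 in control libraries (SD, n = 3 each; exact permutation p = 0.2, Benjamini-Hochberg adjusted over all genes 0.910). The Slc2a1 window had 1.27%, 0% and 3.48% in stress and 0%, 2.50% and 0% in control replicates. Its 3 regions all lay downstream of the gene, with gaps of 3274 to 17349 bp to its end, and none touched its body of 28.6 kb. The Slco1c1 window had 0%, 2.24% and 5.18% in stress and 0%, 0.966% and 0.785% in control replicates. In both genes 1 stress library held no peak, so the groups overlapped (exact permutation p = 0.7 for Slc2a1 and 0.4 for Slco1c1).

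Of the junction and adhesion genes, Esam had 2.11%, 2.32% and 9.13% in stress and 1.98%, 2.21% and 0% in control replicates. Stress replicate 3 stood far above the other 5 libraries, and stress replicate 1 lay below control replicate 2 (exact permutation p = 0.2). Of the 4 regions of Esam, 2 lay in the neighbouring genes Msantd2 and Vsig2. Only 1, with a peak in stress replicate 3 alone, touched the body of Esam. The difference of the Esam means was 3.12 points with all libraries. It was 0.816 points without stress replicate 3 and 0.113 points with the higher-scoring 50% of each list. The Cldn5 window had 1.60%, 0% and 4.06% in stress and 0%, 1.63% and 0% in control replicates. None of this lay in the 1.42 kb body of Cldn5, and 2 of its 3 regions lay in the neighbouring gene Cdc45, which encodes a replication factor. Coverage over Pecam1 was 2.82%, 2.68% and 3.42% in stress and 0%, 2.34% and 2.96% in control replicates. Control replicate 3 exceeded the lower 2 stress libraries, and control replicate 1 had no peak (exact permutation p = 0.3).

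Pecam1 differed with the span that was measured. Over its body alone, 3.44%, 2.94% and 1.94% was covered in stress and 0%, 1.19% and 0% in control replicates, without overlap. The means were 2.77% ± 0.762 and 0.398% ± 0.689 (SD, n = 3 each; exact permutation p = 0.1, adjusted over all genes 1). Of 12597 genes with a peak in the body, 7.49% were higher in this way and 1.04% lower, beside 1 and 0 of the 5 members with a peak in the body. The groups of Pecam1 overlapped once 20 kb of flank was included.

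The receptor genes are both long and differed in their peaks. Flt1, with a body of 164 kb, had 1.82%, 5.09% and 1.28% of its window covered in stress and 0.335%, 3.11% and 0.560% in control replicates. The highest library of each group was replicate 2, and control replicate 2 was above stress replicates 1 and 3 (exact permutation p = 0.5). Tek, with a body of 136 kb, had no peak in any library over a window of 176 kb. Among 512 other genes whose window was within 10% of that length, 8.20% had none. The Ly6c1 window of 44.8 kb was empty as well, as were 37.3% of 8174 genes with windows of like length and 22.9% of all genes. A window without peaks is one where nothing reached a score of 50, and 5hmC below that was not measured.

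**Figure D2:**
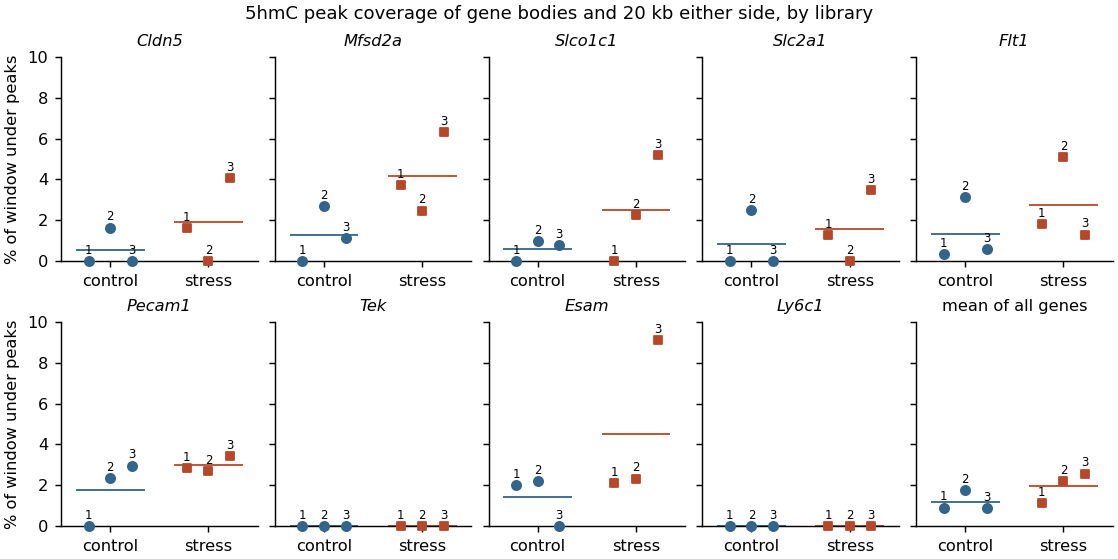
Percentage of each gene's window (body and 20 kb either side) under 5hmC peaks, by library, with the replicate number at each point and the group mean as a line, for 3 control (circles) and 3 stress (squares) libraries. The last panel gives the mean over all gene windows. Tek and Ly6c1 are at 0 in all 6 libraries, and Esam stands out in stress replicate 3 (9.13%). The groups overlap in Esam and in each of the other genes with peaks.

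Across the 9 windows, mean coverage was 2.26% ± 1.21 in stress and 0.858% ± 0.761 in control libraries (SD, n = 3 each), beside 1.96% ± 0.759 and 1.19% ± 0.507 over all gene windows. Divided by that mean over all genes in the same library, the members stood at 1.33, 0.745 and 1.42 in stress replicates 1, 2 and 3. Control replicates 1, 2 and 3 stood at 0.285, 0.966 and 0.677, so stress replicate 2 lay below control replicate 2. Peaks were held by 6, 5 and 7 of the 9 windows in stress replicates 1, 2 and 3, and by 2, 7 and 4 in control replicates 1, 2 and 3, so the groups overlapped in this count as well. The 2 windows of control replicate 1 were those of Flt1 and Esam. Without stress replicate 3 the difference of the means over the 9 windows was 0.704 percentage points in place of 1.40.

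Merging the peaks of the 6 lists gave 42 regions in these windows, of 74450 in all. Of the 42, 25 had a peak in a single library (59.5%, beside 55.8% of the 55907 regions in all gene windows), and 5 had a peak in 3 or more (11.9%, beside 22.7%). None was found in all 3 stress libraries and no control library, and none in all 3 control libraries and no stress library. Such regions made up 1.25% and 0.376% of the 55907 regions in all gene windows, and were in 5.07% and 1.22% of those windows. Exons were touched by 9 regions, 12 lay within introns, 10 upstream and 11 downstream. Counted by library, 52.2% of the 69 highest peaks in the members' regions had a score under 60, close to the lowest of 50, beside 40.7% of all deposited peaks. The scores are the authors' own and were not compared between lists.

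The most recurrent region lay 4.77 kb beyond the end of Pecam1 at chr11:106509680-106510763 (mm9), with a peak in all libraries but control replicate 1. A second Pecam1 region, in intron 14 of 15 exons at chr11:106522525-106523831, had a peak in all 3 stress libraries and in control replicate 2. The same 4 libraries had a peak in a merged region over exon 3 of 14 of Mfsd2a at chr4:122633928-122635616, 2815 bp or more into the gene. Control replicate 3 had a separate peak in intron 3 of Mfsd2a at chr4:122633206-122633813. In Esam, stress replicates 2 and 3 and control replicates 1 and 2 had a peak in a region at chr9:37333265-37334471. The nearest base of that region lay 1203 bp upstream of the start site. Flt1 had a region over exon 29 of 30 at chr5:148376175-148378579, with a peak in stress replicates 1 and 2 and control replicate 2. Of the 15 regions of Flt1, 11 were in a single library. Exons and distances refer to merged regions, and the peak of a single library may be shorter. A genome sequence in mm9 was not used here, so these regions are given by position.

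**Figure D3:**
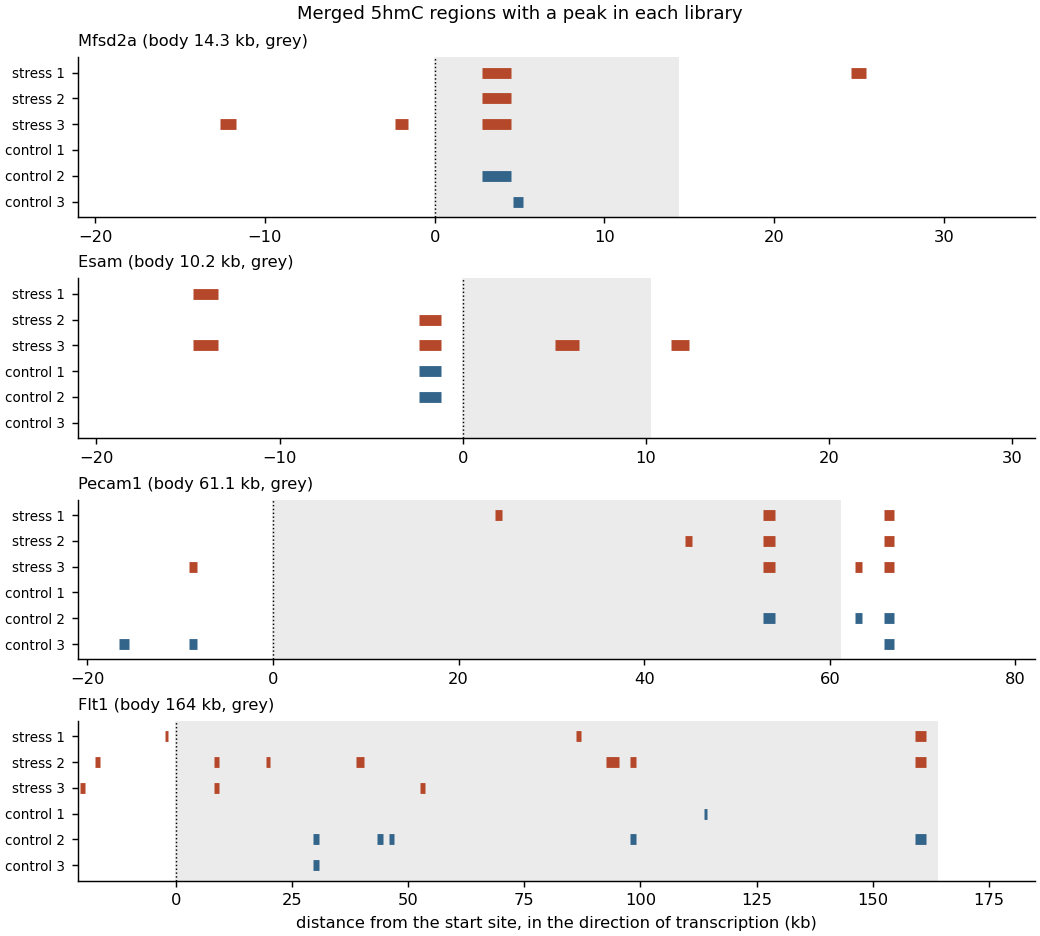
Merged 5hmC regions of Mfsd2a, Esam, Pecam1 and Flt1 by distance from the start site (kb, in the direction of transcription), with a bar across the whole region in each library that has a peak in it (stress above, control below) and the gene body in grey. Bars line up in 4 libraries within Mfsd2a and Pecam1 and upstream of Esam, in 5 libraries beyond the end of Pecam1, and most bars of Flt1 stand alone.

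No library had a peak within 1 kb of any of the 10 start sites of the 9 genes, where 14.9% of 26249 start sites in the tables had one. Slightly further out, between 1 and 2.5 kb upstream, 4 of the 9 genes had a peak in some library, beside 12.8% of 23595 genes. That span was chosen after the values were seen. The peaks were those of Esam in 4 libraries, of Cldn5 and Mfsd2a in stress replicate 3 alone and of Flt1 in stress replicate 1 alone. Their regions began 1.62 kb from the start site in Cldn5, 1.59 kb in Mfsd2a and 1.60 kb in Flt1. Differences in RNA (log2) and in 5hmC coverage (points of the window) were not ordered alike over the 9 genes, and no correlation was computed. Mfsd2a had 1.02 in RNA and 2.895 points in coverage, and Esam had 0.43 and 3.12 points, each with peaks in 5 of 6 libraries. Ly6c1 had 0.72 in RNA with no peak in any library. Cldn5 had -0.67 in RNA and 1.346 points in coverage, with peaks in 3 libraries, all outside its body.

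Other genes listed for the endothelium gave the setting for these values. Of 82 further genes in 4 lists, 55 passed the filter, and 0 of them were past 1.5-fold in either direction. The median log2 difference of the 55 was 0.09, with 28 of 55 above the median of all genes. Some had high levels in this tissue, such as Ctnnb1 (73.3 and 80.3 FPKM) and Bsg (66.7 and 56.8 FPKM). The part of the RNA of each listed gene that came from endothelium was not measured. Junction genes (9 measured) had a median of 0.13, from Cdh5, which encodes VE-cadherin (1.80 and 2.25 FPKM, log2 difference 0.22), and the tight junction gene Ocln (3.04 and 3.48 FPKM, 0.15), to Jam2, an adhesion molecule (5.52 and 4.69 FPKM, -0.20), and Cgnl1, a junction scaffold (2.36 and 2.16 FPKM, -0.09). Barrier transporters (17 measured) had a median of 0.07. The amino acid carrier Slc7a5 (6.20 and 8.72 FPKM, log2 difference 0.43) and the drug efflux pump Abcb1a (3.26 and 4.32 FPKM, 0.32) were highest. The taurine carrier Slc6a6 (12.5 and 10.8 FPKM, -0.19) and the monocarboxylate carrier Slc16a1 (6.12 and 5.64 FPKM, -0.10) were lowest.

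Genes of VEGF and angiopoietin signalling (9 measured) had a median of 0.17. The coreceptors Nrp1 (16.5 and 21.4 FPKM, log2 difference 0.36) and Nrp2 (7.65 and 9.75 FPKM, 0.31) were highest. Kdr, which encodes VEGF receptor 2 (1.78 and 1.19 FPKM, -0.35), and its ligand gene Vegfa (5.47 and 5.13 FPKM, -0.08) were lowest. Endothelial identity genes (20 measured) had a median of 0.05. Cav1, which forms caveolae (1.62 and 2.67 FPKM, 0.49), and Emcn, an endothelial sialomucin (1.50 and 2.31 FPKM, 0.40), were highest. Egfl7, a secreted endothelial protein (5.22 and 3.76 FPKM, -0.39), and Ly6e (11.2 and 9.19 FPKM, -0.26) were lowest. The 4 members past 1.5-fold thus lay outside the range of these 55 genes, -0.39 to 0.49. Members and lists were chosen with earlier results of these data known, so this contrast describes the values and tests nothing.

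Markers of cells that lie beside endothelium or share its markers were read in the same way. Mural cell genes (8 measured) had a median of 0.04. The contractile smooth muscle genes Myh11 (2.05 and 3.57 FPKM, log2 difference 0.58) and Acta2 (2.65 and 3.58 FPKM, 0.33) were highest in that list. Cspg4 (1.30 and 1.14 FPKM, -0.10) and Rgs5 (11.9 and 11.4 FPKM, -0.05) were lowest. Between these lay Vtn (0.29), the contractile gene Tagln (0.05), the pericyte gene Pdgfrb (0.02) and Mcam (-0.01). The list of meninges and fibroblasts had 0.05. The leukocyte and platelet list, of interest because Pecam1 and Ly6c1 are also made there, summed to 2.74 FPKM (control) and 2.66 FPKM (stress). Most of both sums was Lyz2 (2.29 and 1.86 FPKM). The defining gene of the list, Ptprc, was at 0.359 and 0.236 FPKM, and Itga2b and Ccr2 were also lower in the stress table. Ppbp, S100a8, S100a9 and Cd3e were at 0 (control) and at 0.202, 0.123, 0.178 and 0.0179 FPKM (stress). Of the 11 genes, 7 (control) and 3 (stress) were listed at 0. All 8 astrocyte markers, of interest for Slco1c1 and Slc2a1, were above the median of all genes, with a median of 0.18 and 404 and 468 FPKM in sum. Their part in the values of Slco1c1 and Slc2a1 was not tested.

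**Figure D4:**
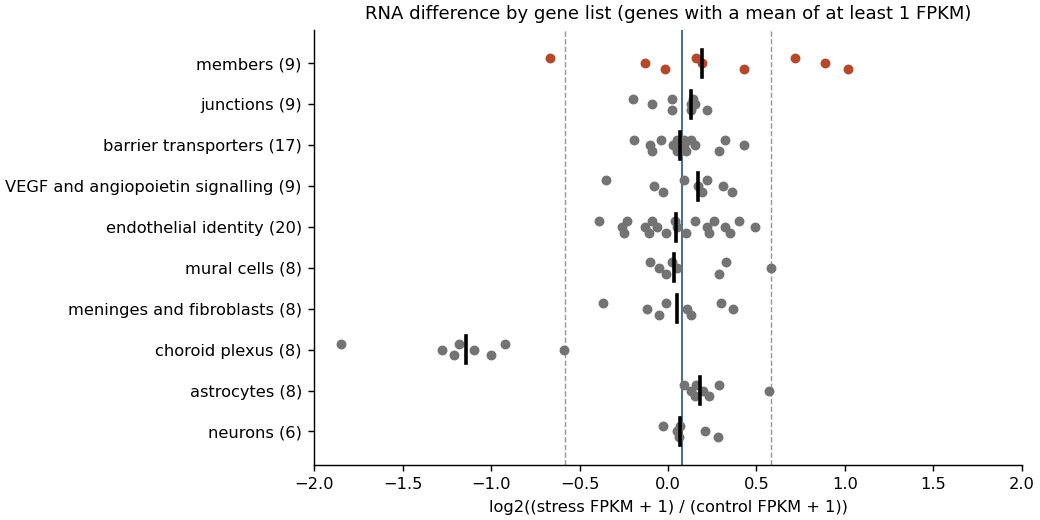
RNA differences, log2((stress + 1)/(control + 1)), of the 9 members (top) and of genes of the other lists that passed the filter, with the number of genes in brackets. Each point is a gene, the short black lines are medians, the solid line is the median of all genes (0.08) and the dashed lines mark 1.5-fold. The members spread from -0.67 to 1.02, the 4 endothelial lists from -0.39 to 0.49, and the choroid plexus list has a median of -1.14.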

How the data were processed

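The 5hmC libraries were made by tagging 5hmC with a modified glucose, biotin capture and 50 bp single-read sequencing, per the labels' protocols. The submitters' processing notes name Bowtie 0.12.9, edgeR and the mm9 build, and the protocol puts each library's mapped reads at roughly 25000000 to 35000000. The authors deposited 1 peak list per library with a score per peak, under peak names of the kind MACS writes, and no source used here says if an input was sequenced. Scores served only to rank peaks within a list. The RNA tables were made with TopHat 1.0.12, Cufflinks 2.1.1 and Cuffdiff 2.1.1, per the submitters' processing notes. The authors deposited 1 table of FPKM per transcript and group, pooled over libraries, without counts. Labels do not say how the pools relate to litters or cages.

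Windows ran from the first to the last base of a gene's transcripts and 20 kb beyond, for 23595 genes at 1 locus (358 at several loci were left out). Peaks on the autosomes, X and Y were merged into regions where they shared at least 1 bp. For every gene, coverage was compared by an exact permutation test (two-sided, 20 assignments of the 6 libraries), with Benjamini-Hochberg adjustment over all genes with a peak. Analyses used Python 3.11.15, NumPy 2.4.6 and Biopython 1.88, and were tested on simulated data. FPKM of isoforms were summed, with a pseudocount of 1 and a minimum mean of 1. The named genes are the 9 members, the 2 highest and 2 lowest of each endothelial list, Ly6c2 and the 3 genes most alike in coverage. List genes past 1.5-fold were all of the choroid plexus list and are counted without names. No other gene lay under a region with a peak in 3 or more libraries. Snap25, Ptprc, Cdc45, Msantd2, Vsig2, the mural cell genes and the list genes with separated coverage were named after their values were seen. Ctnnb1 and the other leukocyte and platelet genes were as well. Members and lists were chosen with earlier results of these data known. Of 153 list symbols, 151 matched the tables. Deviations of same-numbered stress and control libraries showed no pairing, which cannot exclude one, and the numbers were not taken as pairs. Alternatives covered the peaks used, the span, single libraries left out, the replicate block, the pseudocount, the filter, isoforms and centring, and lists of the same covered length were added after seeing the data. The wider endothelial genes past 1.5-fold lower with the most abundant isoform are not reported here.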

Additional observations from a re-analysis of the deposited data

How the results depend on the processing

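No member's coverage separated the groups with all libraries and the full window. Pecam1 alone (1 member) separated with the body only and with 5 kb either side, and none did with top-scoring peaks, the higher-scoring 50%, coverage relative to the library or lists of equal covered length. Leaving out single libraries gave 0 to 3 such members (3 without control replicate 2: Mfsd2a, Flt1 and Esam), 0 to 2 stress-only regions and 0 to 1 control-only regions, since a region then needs fewer libraries. The difference in mean coverage of the windows was 0.704 to 1.83 points with 1 library left out. The Slc2a1 difference, 0.750 points with all libraries, was -0.198 to 1.58 points with 1 left out and reversed without stress replicate 3, and that of Pecam1 to -0.0449 with lists of equal covered length, where the cause was not tested. With the replicate number as a block, 3 members (Flt1, Pecam1 and Esam) were higher in stress in all 3 pairs, beside 20.7% of all genes with a peak. The deviations of same-numbered libraries correlated by 0.0417, 0.0302 and -0.0074, and those of differently numbered ones by -0.0591 to 0.0464. These values show no pairing and cannot exclude one. The smallest sign-flip p of 0.25 cannot pass 0.05.

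The calls of Mfsd2a, Slc2a1, Ly6c1 and Cldn5 past 1.5-fold held under all 4 RNA alternatives, most of which could not remove them. All 4 genes passed the filter, so leaving it out changed nothing, and a smaller pseudocount can only enlarge a difference. Mfsd2a, Slc2a1 and Cldn5 have 1 transcript, so isoform choice could not change them. Centring could have removed a higher call, and Mfsd2a, Slc2a1 and Ly6c1 were then at 0.94, 0.80 and 0.64. With the most abundant isoform only, Pecam1 was also past 1.5-fold higher, through NM_008816, which was the lesser form in the control table. The median of the members was then 0.43, and 3 of the wider endothelial genes (Vegfa, Nrp2 and Cav1) were past 1.5-fold higher. A pseudocount of 0.1 put 2 of these genes (Emcn and Cav1) past 1.5-fold higher, and 335 and 219 of all genes past it in place of 131 and 99. Isoform choice gave 361 and 264. Centring on the median of all genes gave 86 and 141. Reads per peak and per gene were not analysed here, so no counting error is given.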

Other observations

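Of 70 further endothelial genes with a peak in the window, 9 had higher coverage in every stress than in every control library (12.9%, beside 10.5% of all genes) and 1 had lower (1.43%, beside 1.11%). The higher ones included Pgf, a ligand of VEGF receptor 1, at 8.26% ± 4.42 in stress and 2.31% ± 0.849 in control libraries (SD, n = 3 each), and Dll4, a Notch ligand of tip cells, at 4.12% ± 2.04 and 1.26% ± 1.24. Stress-only regions were in the windows of Pgf, Dll4, Slc7a1 and Erg, 4 of 82, close to the 5.07% of all gene windows. Plvap, which forms the diaphragms of leaky vessels, was at 5.68% ± 1.57 and 2.09% ± 0.884, and Bsg, a chaperone of monocarboxylate carriers, at 7.40% ± 1.70 and 1.30% ± 2.26. The others were Jam2, Cgnl1, Slc3a2, Fli1 and Gpr116. Podxl, a sialomucin of the endothelial surface, was the lower one, at 1.86% ± 0.337 and 3.67% ± 0.866.

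Over the 6 libraries, the summed coverage of the 9 windows, as a share of each library's covered length, was most like that of Grin2b (Pearson r = 0.995), Gtpbp6 (0.991) and Plcxd1 (0.991) among 11696 genes. These are the highest of many values over 6 points, and the coverage of the last 2 genes was equally like it.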
